A study of Mus musculus with 2 samples.

Results

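The nonclassical monocytes of mouse liver described here were 684 cells, chosen from 34080 barcodes of 2 single-cell libraries by their counts of unique molecular identifiers (UMIs). A member had at least 200 detected genes, at most 20% mitochondrial UMIs, at least 2 UMIs of Ace and Treml4 together and at least 1 UMI of Csf1r. It also had at most 4 UMIs of Cxcl10, at most 4 of the complement genes C1qa, C1qb and C1qc together, at most 1 of the T cell genes Cd3d, Cd3e and Cd3g and at most 1 of the dendritic cell genes Xcr1 and Clec9a. The control library gave 411 members and the MC38 library 273. Ace, Treml4, Csf1r and the genes with an upper limit chose the cells, so their levels are given only as a description.

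Both libraries held hepatic mononuclear cells of C57BL/6 mice at day 14, obtained by density centrifugation after slow spins to deplete hepatocytes, and each pooled 3 mice. Mice of the group called control here had received phosphate-buffered saline into the spleen and are labelled as having no tumor. By the same route, the MC38 group was given 500000 cells of the mouse colon adenocarcinoma line MC38. The growth protocol, worded alike for both groups, also names removal of the spleen straight after the injection and a subcutaneous injection of MC38 cells, and the sources used here do not say whether control mice lost their spleens or carried a subcutaneous tumor. With 1 pooled library per group there is no replicate check, and the liver tumor cannot be told apart from any other difference between the libraries, such as handling or sequencing.

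Nonclassical monocytes are blood monocytes that patrol the inner surface of small vessels and take up particles, immune complexes and dying cells there. In mice they arise from classical, Ly6C-high monocytes, and the change needs the nuclear receptor Nr4a1 and is helped by Cebpb, Klf2 and Notch2. They are known for high Cx3cr1 (the fractalkine receptor), Spn (CD43), Itgal (the LFA-1 alpha chain), Treml4 and Ace (angiotensin-converting enzyme), and for low Ly6c2 and Ccr2, the latter being the receptor that brings classical monocytes out of the bone marrow.

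Members were deeply sequenced, with 4203467 UMIs in the control library and 3165533 in the MC38 one. Their median depth was 9205 and 11356 UMIs, and their median number of genes 2733 and 3113. The mitochondrial share of UMIs differed, at a median of 9.33% in control members and 5.42% in MC38 members. Doublet calls were 13 (3.16%) and 46 (16.8%) of the members. The libraries shared 63 barcodes, of which 4 were a member in either library and none in both. Levels are counts per 1000000 UMIs (CPM), taken over the summed UMIs of a library's members. Folds are ratios of CPM, MC38 over control unless stated, with exact conditional 95% intervals that cover counting error only, and no difference between the groups could be tested.

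The genes that the label asks to be high were found in members of both libraries, each at a lower level in MC38 members. Cx3cr1, which the rule did not use, was at 394 CPM in control and 166 CPM in MC38 members, with a UMI in 90.02% and 59.3% of members. After each cell was thinned to 2000 UMIs the shares were 51.2% and 22.7%, beside 3.04% and 1.20% in B cells, which should lack the gene, and 4.70% and 6.49% in T cells, some of which are known to express it. T cells had median depths of 6651.5 and 5732 UMIs and B cells 3969 and 3006.5. Ace itself was at 432 and 141 CPM and Treml4 at 260.0 and 165 CPM in members of the control and the MC38 library. Spn and Itgal, which T cells also carry, were at 304 and 71.1 and at 746 and 394 CPM.

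Classical monocytes of the same libraries served for comparison. They had to meet the same filters and upper limits, with no UMI of Ace or Treml4, at least 3 of Ly6c2 and at least 1 of Ccr2, which gave 508 control and 2241 MC38 cells. Of 5336 genes that could be compared, 1.61% were at least 2-fold higher in the nonclassical cells in both libraries and 0.45% at least 2-fold lower in both. Of the list of nonclassical identity genes, 14 of 19 measured members were higher in both libraries and none lower. The list's median log2 ratio over classical monocytes was 2.28 in the control library and 1.34 in the MC38 one. Of the classical list, none of 17 was higher in both and 7 were lower. The members thus stood apart from classical monocytes by identity genes outside the rule, in both libraries. Low Ccr2, which the label also asks for, was not seen in MC38 members. After thinning, Ccr2 had a UMI in 57.4% of control and 84.6% of MC38 members, and in 88.7% and 91.5% of classical cells. Ly6c2 had one in 39.5% and 37.7% of members, and in 89.1% and 86.7% of classical cells. Classical cells were chosen by both genes, and the part of that choice in the classical list counts was not tested.

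**Figure D1:**
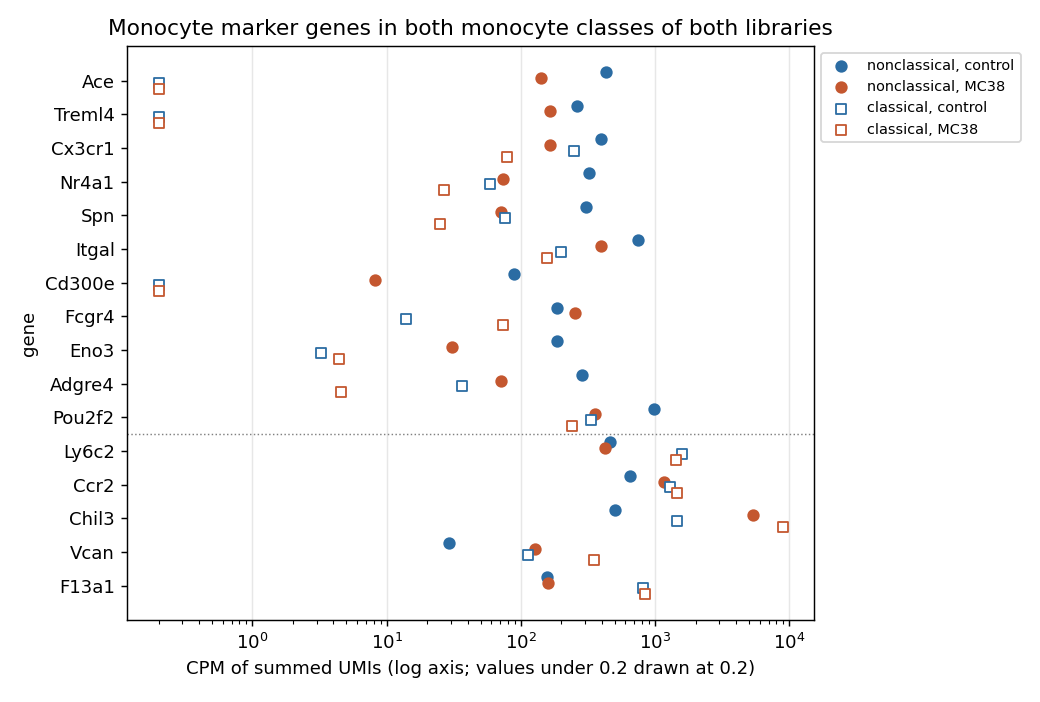
Levels of monocyte marker genes, as CPM of summed UMIs on a log axis, in nonclassical (filled circles) and classical monocytes (open squares) of the control (blue) and the MC38 library (orange). The genes above the dotted line mark nonclassical cells and those below it classical cells. Ace, Treml4, Ly6c2 and Ccr2 were used to choose the cells, and values under 0.2 CPM are drawn at 0.2.

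Single genes showed how far the 2 monocyte classes stood apart. Cd300e, an activating receptor of the CD300 family, was at 88.7 and 8.21 CPM in nonclassical cells and had 1 UMI in all classical cells of each library. Eno3, the muscle form of the glycolytic enzyme enolase, stood 5.85 and 2.79 log2 units over classical cells in the control and the MC38 library. Adgre4, an adhesion receptor of the EGF-TM7 family, stood 2.98 and 3.98 over them. Cx3cr1, by contrast, was only 0.67 and 1.07 log2 units higher than in classical monocytes, which expressed it too, at 247 and 79.0 CPM. After thinning, Cx3cr1 had a UMI in 34.7% of control and 12.9% of MC38 classical cells. The share in MC38 members, 22.7%, thus lay below that of control classical cells.

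Nonclassical monocytes made up a smaller part of the MC38 library. They were 411 of 8086 kept barcodes in the control, 5.08% (exact binomial 95% interval 4.61 to 5.58), and 273 of 17338 in the MC38 library, 1.57% (1.39 to 1.77). That share was 3.23-fold lower, a log2 ratio of -1.69 (-1.92 to -1.47). Among nonclassical and classical monocytes alone they were 44.7% (41.5 to 48.0) of 919 cells in the control and 10.9% (9.67 to 12.1) of 2514 in the MC38 library, a 4.12-fold lower share with a log2 ratio of -2.04 (-2.27 to -1.82). The second denominator counts only cells that met the limits of either monocyte class. It still depends on those limits, and the effect of free RNA on them was not tested.

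Other barcodes also reached 2 UMIs of Ace and Treml4, which shows the level that free RNA, doublets or their own expression gave. They were 4.79% of 2506 T cell barcodes and 0.978% of 1125 B cell barcodes in the control, and 3.94% of 711 and 0.280% of 2144 in the MC38 library. Hepatocyte barcodes were at 2.74% and 0.828%, and NK cell or ILC1 barcodes at 1.80% and 1.69%. The share of members among kept MC38 barcodes, 1.57%, is over all classes and also needs Csf1r, so it is not like these shares. Among members, classical monocytes and cells outside only by having 1 UMI of the pair, members were 38.8% of 1059 and 9.30% of 2935. The part of free RNA and doublets among members with 2 UMIs was not tested.

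The counts of Ace and Treml4 per member differed between the libraries. Of control members 74 (18.0%) had exactly 2 UMIs of the pair, 93 (22.6%) had 3 or 4, 142 (34.5%) had 5 to 9 and 102 (24.8%) had 10 or more. In the MC38 library these were 121 (44.3%), 89 (32.6%), 57 (20.9%) and 6 (2.2%) cells, so most MC38 members lay near the limit. Just outside it, with 1 UMI of the pair, stood 140 control and 421 MC38 cells, with Cx3cr1 at 302 and 123 CPM and Ly6c2 at 958 and 938 CPM. Just inside it, with 2 UMIs, Cx3cr1 was at 359 and 175 CPM and Ly6c2 at 733 and 542 CPM.

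Members with more UMIs of the pair had a higher summed level of the other nonclassical genes, though not of each gene. The summed level of the identity list was 3950.0 CPM in control members with 2 UMIs, then 5084, 7108 and 9981 CPM in the bands of 3 to 4, 5 to 9 and 10 or more. In the MC38 library it was 2549, 3018, 4044 and 4754 CPM, below the control in every band. Nr4a1 followed the same order, at 162, 231, 328 and 473 CPM in the control library and at 52.1, 69.0, 119 and 159 CPM in the MC38 one. Cx3cr1 did not, at 359, 339, 410.3 and 435 CPM in the control and at 175, 175, 134 and 147 CPM in the MC38 library. Ly6c2 ran the other way in the control, from 733 CPM in the lowest band to 213 in the highest, and F13a1, a coagulation factor subunit of classical monocytes, from 349 to 32.6 CPM. Median cell depth over the control bands was 9042.5, 8917, 8691 and 11291.5 UMIs, so the top band was the deepest. In the MC38 library it ranged from 10682 to 11570.0 UMIs. The bands were cut on unthinned UMIs, and the part of depth in them was not tested.

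**Figure D2:**
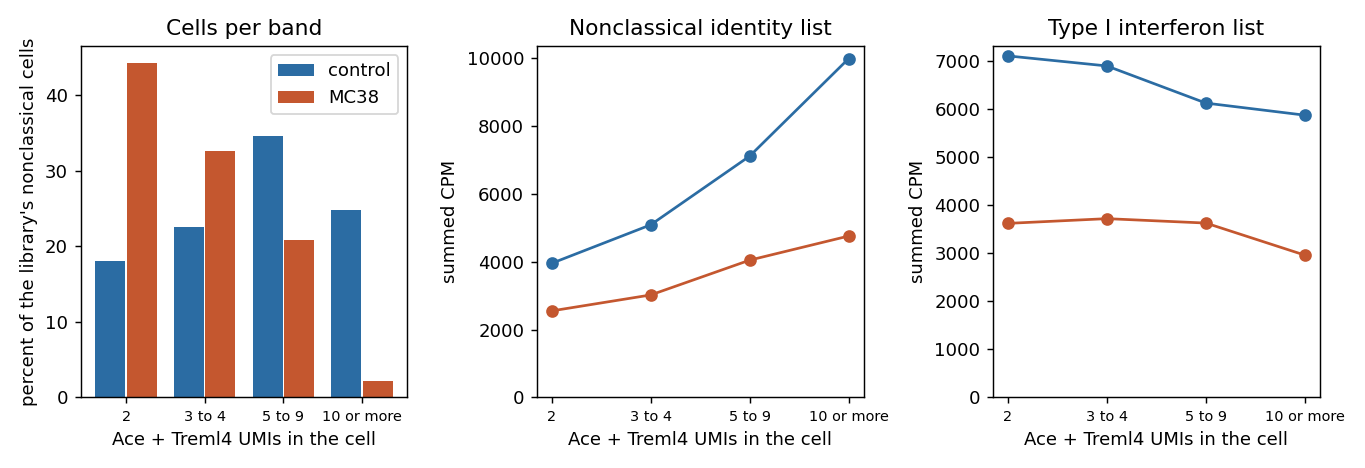
Nonclassical monocytes split by their UMIs of Ace and Treml4 together: the percent of each library's members per band (left), and the summed CPM of the nonclassical identity list (middle) and of the type I interferon list (right), for the control (blue) and MC38 (orange). MC38 members crowd into the lowest band (44.3% against 18.0%), and both list sums are below the control in each band; the highest MC38 band holds 6 cells.

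The upper limits of the rule removed different numbers from the 2 libraries. The limit on C1q genes alone kept out 31 control and 275 MC38 cells, the latter more than the MC38 members themselves. Those 275 cells had Cx3cr1 at 181 CPM, Spn at 54.4 and Fcgr4 at 284, beside 166, 71.1 and 251 CPM in MC38 members. The limit on Cxcl10 alone kept out 29 and 11 cells, and the mitochondrial limit alone 53 and 4. Without the limit on C1q genes there were 442 and 548 cells, and the log2 ratio of their shares of kept barcodes was -0.79.

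Ly6c2 split the members further. It had no UMI in 151 control and 79 MC38 members, 1 to 4 in 119 and 111, and 5 or more in 141 and 83. Control members without it had Nr4a1 at 461 CPM and Cd300e at 198 CPM, against 226 and 25.3 CPM in those with 5 or more. In the MC38 library Nr4a1 was at 94.4 and 70.0 CPM in the same 2 sets. Ccr2 stayed high in MC38 members without Ly6c2, at 1010.4 CPM, beside 377 CPM in such control members. The split used unthinned UMIs, and cells with more Ly6c2 UMIs were deeper. From no UMI to 5 or more, median depths were 6978, 9463 and 10416 UMIs in control members. In MC38 members they were 9931, 11392 and 12463 UMIs, and the part of depth in the split was not tested.

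Between the libraries, 5925 genes had at least 20 UMIs in all and at least 20 CPM in members of the library where they were higher. Of these, 4.71% were at least 2-fold higher in MC38 members and 4.84% at least 2-fold lower. For gene lists a gene needed only the 20 UMIs, which 9757 genes met, and 6.3% of those were at least 2-fold higher and 7.12% at least 2-fold lower. The median log2 ratio over them was -0.04. In what follows, higher and lower mean at least 2-fold between the summed UMIs of the 2 libraries, and list counts are read against 6.3% and 7.12%.

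The genes that define nonclassical monocytes were lower in MC38 members. Of 21 measured genes of the identity list none was higher and 15 were lower, and the median log2 ratio was -1.46. Nr4a1, the nuclear receptor these cells depend on, was at 321 CPM in control and 73.9 CPM in MC38 members, a log2 ratio of -2.12 (-2.33 to -1.92), with a UMI in 83.0% and 44.3% of members. Spn was at 304 and 71.1 CPM and Cx3cr1 at 394 and 166 CPM, with log2 ratios of -2.10 (-2.31 to -1.89) and -1.25 (-1.39 to -1.10). Pou2f2, the transcription factor Oct2, was at 979 and 355 CPM, and Eno3 at 185 and 30.6 CPM, 6.04-fold lower. Cd300e had 373 and 26 UMIs in the control and the MC38 library, 88.7 and 8.21 CPM, and was 10.8-fold lower.

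The identity genes were not uniformly lower. Fcgr4, the activating IgG receptor that marks nonclassical monocytes, was at 185 CPM in control and 251 CPM in MC38 members, a log2 ratio of 0.44 (0.30 to 0.59), with a UMI in 58.2% and 78.8% of members. Tcf7l2, a factor of the Wnt pathway, had 83.5 and 75.5 CPM and an interval that included no difference, -0.15 (-0.39 to 0.10). Itgal, at 746 and 394 CPM, Gngt2, at 1108 and 621 CPM, and Itgax, at 71.4 and 46.4 CPM, were below the control by less than 2-fold. In classical monocytes the same list had a median log2 ratio of -0.38, with 3 genes higher and 6 lower of 21.

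Genes of classical monocytes gave a mixed picture. Of 19 measured, 5 were higher and 2 lower in MC38 members. Chil3, a chitinase-like secreted protein, was at 500.3 CPM in control and 5315 CPM in MC38 members, and the share of members with a UMI was 53.3% and 92.3%. Fn1 (fibronectin) was at 425 and 1166 CPM, Vcan (versican) at 29.3 and 128, Mmp8 (neutrophil collagenase) at 15.0 and 90.7 and Thbs1 (thrombospondin 1) at 9.04 and 101.1. Ifitm6, an interferon-inducible membrane protein, was among the lower genes, at 464 and 182 CPM. Ly6c2, at 458 and 424, and F13a1, at 157 and 159 CPM, lay within 2-fold, and Ccr2 was at 647 and 1163 CPM, a log2 ratio of 0.85 (0.78 to 0.92). Chil3 was also present in MC38 T cells, with a UMI in 24.1% of cells thinned to 2000 UMIs beside 85.0% of thinned members, and the part of free RNA in its count was not tested.

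Regulators of monocyte fate were lower more often than higher, in both monocyte classes. In classical monocytes 3 of 24 were higher and 7 lower, with a median log2 ratio of -0.50. In members 1 of 24 was higher and 9 were lower, with a median of -0.36. Klf2 and Klf4, Krüppel-like factors of quiescent and monocytic cells, were at 949 and 442 and 401 and 159 CPM. Bcl6, a transcriptional repressor, was at 94.7 and 25.3 CPM with a log2 ratio of -1.91 (-2.27 to -1.56). Notch2 was at 82.8 and 41.4 CPM and Hes1, a target of Notch signalling, at 91.4 and 33.8 CPM. Pparg, a lipid-sensing nuclear receptor, was at 27.8 and 5.37 CPM. Cebpb, known to act upstream of Nr4a1 in these cells, was at 683 and 407 CPM, a log2 ratio of -0.75 (-0.84 to -0.65), and Spi1 (PU.1) at 733 and 719.9 CPM.

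Receptors for traffic differed in both directions, with 3 of 28 higher and 5 lower. S1pr5, a sphingosine 1-phosphate receptor used by nonclassical monocytes to leave the bone marrow, was at 69.9 CPM in control and 7.90 CPM in MC38 members, a log2 ratio of -3.15 (-3.80 to -2.56). Ccr1, a receptor for inflammatory CC chemokines, was at 3.57 and 130.2 CPM, and C5ar1, the receptor of the complement fragment C5a, at 11.4 and 89.4 CPM. Ccr1 was found in 3.16% of control and 61.2% of MC38 members. In classical monocytes Ccr1 was at 29.3 and 186 CPM, so it was higher there too. The integrin chains Itgb2, at 546 and 373 CPM, Itga4, at 570.5 and 363, and Itgam, at 218 and 227, differed by less than 2-fold.

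Low-affinity and high-affinity IgG receptors were higher in MC38 members. Fcgr3 was at 262 CPM in control and 612 CPM in MC38 members, Fcgr2b (the inhibitory receptor) at 153 and 334 and Fcgr1 at 82.3 and 173 CPM, with log2 ratios of 1.23 (1.12 to 1.33), 1.12 (0.98 to 1.27) and 1.07 (0.88 to 1.27). These were 3 of 8 genes of the list, with none lower. Their shared signalling chain Fcer1g was at 2759 and 2776 CPM and the kinase Syk at 237 and 201 CPM. Fcgr2b also marks liver endothelium, and 9.49% of control and 35.2% of MC38 members had at least 5 UMIs of the endothelial list that holds it, so the part of endothelial RNA in its level was not tested. With cells thinned to 2000 UMIs, Fcgr3 had a UMI in 36.3% and 72.9% of members and 3.93% and 16.0% of T cells.

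Receptors for dying cells, lipids and lectin ligands did not move as 1 group. Cd36, a scavenger receptor for oxidised lipids, was among the lowest, at 118 CPM in control and 8.85 CPM in MC38 members, 13.3-fold lower, with a UMI in 44.8% and 6.96% of members. Axl, a receptor that recognises dying cells through Gas6, was at 38.3 and 134 CPM, and Cd300lf, an inhibitory receptor of phosphatidylserine, at 23.1 and 153 CPM. In the scavenger list as a whole 5 of 16 were higher and 3 lower. Among pattern recognition genes 2 of 20 were higher, Cd14 at 17.6 and 124 and Clec4n (dectin-2) at 17.8 and 134 CPM. The lower gene there was Tlr7, the endosomal receptor for single-stranded RNA through which nonclassical monocytes are known to sense dying endothelium, at 112 CPM in control and 43.6 CPM in MC38 members, a log2 ratio of -1.36 (-1.64 to -1.08).

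Genes induced by type I interferon were lower as a group. Of 35 measured none was higher and 20 were lower, all 35 log2 ratios were below 0, and their median was -1.19. Isg15, a ubiquitin-like modifier, was at 104 CPM in control and 35.7 CPM in MC38 members, a log2 ratio of -1.55 (-1.86 to -1.25). Ifit3, part of the antiviral IFIT complex, was at 37.1 and 8.85 CPM, Rsad2 (viperin) at 26.4 and 5.37 CPM and Irf7, the factor that amplifies interferon production, at 139.9 and 59.4 CPM. Ifi27l2a had the most UMIs among the lower genes of the list, at 1294 and 299 CPM, 4.34-fold lower. Irf9, the DNA-binding subunit of the factor that type I interferon activates, was at 74.0 and 70.1 CPM, within 2-fold.

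The lower interferon level was shared with classical monocytes, where 30 of 35 were lower and the median log2 ratio was -1.96. Within the control library the list's median in nonclassical over classical cells was -0.13, and within the MC38 library 0.35, and no gene of 23 compared passed 2-fold in the same direction in both. The list's summed level was lower in control members with more UMIs of Ace and Treml4, at 7099, 6891, 6119 and 5867 CPM over the 4 bands. In the MC38 library it was 3618, 3716, 3625 and 2958 CPM, the last of these in 6 cells. Isg15 had a UMI in 15.4% and 5.49% of thinned members, beside 11.1% and 5.05% of T cells and 3.50% and 1.20% of B cells, so its shares in T cells lay near those in members. Cells over the limit of 4 Cxcl10 UMIs, an interferon-induced chemokine, were outside the rule and numbered 29 and 11.

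The promoters of these genes were read for the 10-base element that interferon-stimulated factors recognise, because the list as a whole was lower. The search used the letters GAAANNGAAA on both strands, in 300 bases from 250 before to 50 after the RefSeq transcription start (build GRCm38.p6), with overlapping matches allowed. It matched 1131 of 32851 promoters (3.44%) and, of the interferon list, 17 of 33 promoters, belonging to 15 of 27 genes with an entry. The nonclassical identity list had a match in 1 of 18 genes and the classical list in 0 of 15. The tumor macrophage list had one in 3 of 19 genes and the MHC class II list in 1 of 8, beside 3.99% of all 27025 genes. Among the interferon genes measured, the 14 with a match had a median log2 ratio of -1.21 and the 11 without one -1.12, so the 2 sets differed little. A match describes the letters only. Parts of 3 promoters of lower genes, which differ in number and direction of matches, are printed in the gene's own direction, with the GAAA and TTTC letters of each match in capitals. Ifit3, chr19:34583333-34583452 on the plus strand, has 2 separate matches on the opposite strand, Isg15, chr4:156200817-156200936 on the minus strand, has 3 overlapping ones in its own direction, and Rsad2, chr12:26456493-26456612 on the minus strand, has 1 on the opposite strand.
Ifit3: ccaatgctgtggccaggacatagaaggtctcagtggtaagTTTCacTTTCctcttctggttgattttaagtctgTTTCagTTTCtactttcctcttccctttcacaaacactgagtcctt
Isg15: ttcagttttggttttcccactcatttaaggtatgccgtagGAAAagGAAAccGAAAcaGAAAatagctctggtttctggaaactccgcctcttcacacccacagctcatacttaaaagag
Rsad2: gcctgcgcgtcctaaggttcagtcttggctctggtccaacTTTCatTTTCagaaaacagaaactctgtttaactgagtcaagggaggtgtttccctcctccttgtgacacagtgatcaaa

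Genes induced by interferon gamma behaved otherwise, with 3 of 19 higher, 1 lower and a median log2 ratio of -0.04. The guanylate-binding protein genes Gbp7 and Gbp4 were at 42.1 and 127 and 12.4 and 29.1 CPM, and Iigp1, an immunity-related GTPase, at 2.85 and 16.4 CPM. Gbp2 was at 124 and 243 CPM, just under 2-fold, with a log2 ratio of 0.97 (0.81 to 1.13). Irgm2 was the lower gene, at 38.1 and 16.1 CPM. Over classical monocytes Gbp2 stood 0.48 and 1.60 log2 units higher in the control and the MC38 library.

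Antigen presentation set the cells apart from classical monocytes in both libraries. Of 8 genes of the MHC class II list compared, 5 were higher than in classical cells in both libraries and none lower, with list medians of 1.46 and 2.23 log2 units. H2-Aa, an alpha chain, was at 2058 and 1131 CPM in nonclassical and 611 and 193 CPM in classical monocytes of the control and the MC38 library. Cd74, the invariant chain, stood 1.69 and 2.47 log2 units over classical cells and Ciita, the master factor of the class, 1.29 and 2.07. Between the libraries the class II genes were within 2-fold but for 1 of 11, H2-Ob, which was lower at 20.9 and 8.53 CPM. Their median log2 ratio was -0.78. In classical monocytes 4 of 11 were lower, with a median of -0.89. Of the members, 19.2% in the control library and 8.79% in the MC38 one had at least 5 UMIs of genes of B cells, a rich source of class II transcripts, so the part of B cell RNA in the class II levels was not tested.

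Class I genes had a median log2 ratio of -0.67 in classical monocytes, with 6 of 20 lower. In members the median was -0.57, with 15 of 20 below 0. H2-K1 was at 2178 and 1107 CPM and B2m, the light chain, at 2446 and 1268 CPM, with log2 ratios of -0.98 and -0.95. None was higher by 2-fold and 4 were lower, the nonclassical class I genes H2-Q4, H2-Q6, H2-Q7 and H2-T23, whose near-identical copies make their separate counts uncertain. H2-Q7 was at 257 and 57.8 CPM. The proteasome subunit Psmb8 was at 645 and 629 CPM and the peptide-loading gene Tapbp at 295 and 232 CPM, both within 2-fold.

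Inflammatory transcripts differed by gene. Il1b, a cytokine that nonclassical monocytes carried above classical cells in both libraries (log2 1.66 and 1.82), was at 189 and 219 CPM, a log2 ratio of 0.21 (0.07 to 0.36). Tnf was at 12.1 and 4.42 CPM. Il1r2, the decoy receptor of interleukin 1, had 2 and 130 UMIs, 0.476 and 41.1 CPM, and Osm (oncostatin M) was at 4.28 and 27.5 CPM. In the cytokine list 4 of 19 were higher and 2 lower. Of 17 NF-kB response genes 1 was higher, Ier3 at 9.75 and 153 CPM. The 3 lower ones were Nfkbiz at 127 and 38.9, Traf1 at 65.7 and 18.0 and Cd83 at 38.8 and 9.79 CPM. The list median was -0.69, beside -0.58 in classical monocytes, where 1 was higher and 3 lower. Among immediate-early genes, which tissue handling also induces, 2 of 20 were higher and 3 lower, beside 1 and 5 in classical monocytes. The lower ones in members were Dusp2 at 92.5 and 29.4 CPM, Zfp36 at 359.7 and 146 CPM, and Nr4a1. Nr4a1, with its log2 ratio of -2.12, is thus on this list as well as on the identity list. The part of handling in its difference was not tested. Fos, at 316 and 257, and Jun, at 208 and 202 CPM, were close to the control. Of the chemokine ligands 3 of 12 were higher and 1 lower, Ccl5 at 125 and 51.5 CPM, and Ccl6 and Ccl9 were at 728 and 700.0 and 269.5 and 339 CPM.

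Transcripts of glycolysis were higher as a set. Of 24 genes 7 were higher and none lower, and the median log2 ratio was 0.78, beside 0.88 in classical monocytes. Gapdh was at 796 CPM in control and 1680.3 CPM in MC38 members, Aldoa at 259 and 562 CPM and Pgam1 at 153 and 316 CPM. Slc2a1, the glucose transporter GLUT1, was at 15.5 and 46.8 CPM, and the other genes past 2-fold were the hypoxia-linked Bnip3, Egln3 and Hilpda. Hif1a itself was at 67.8 and 129 CPM and Ldha at 219.8 and 372 CPM, both under 2-fold.

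**Figure D3:**
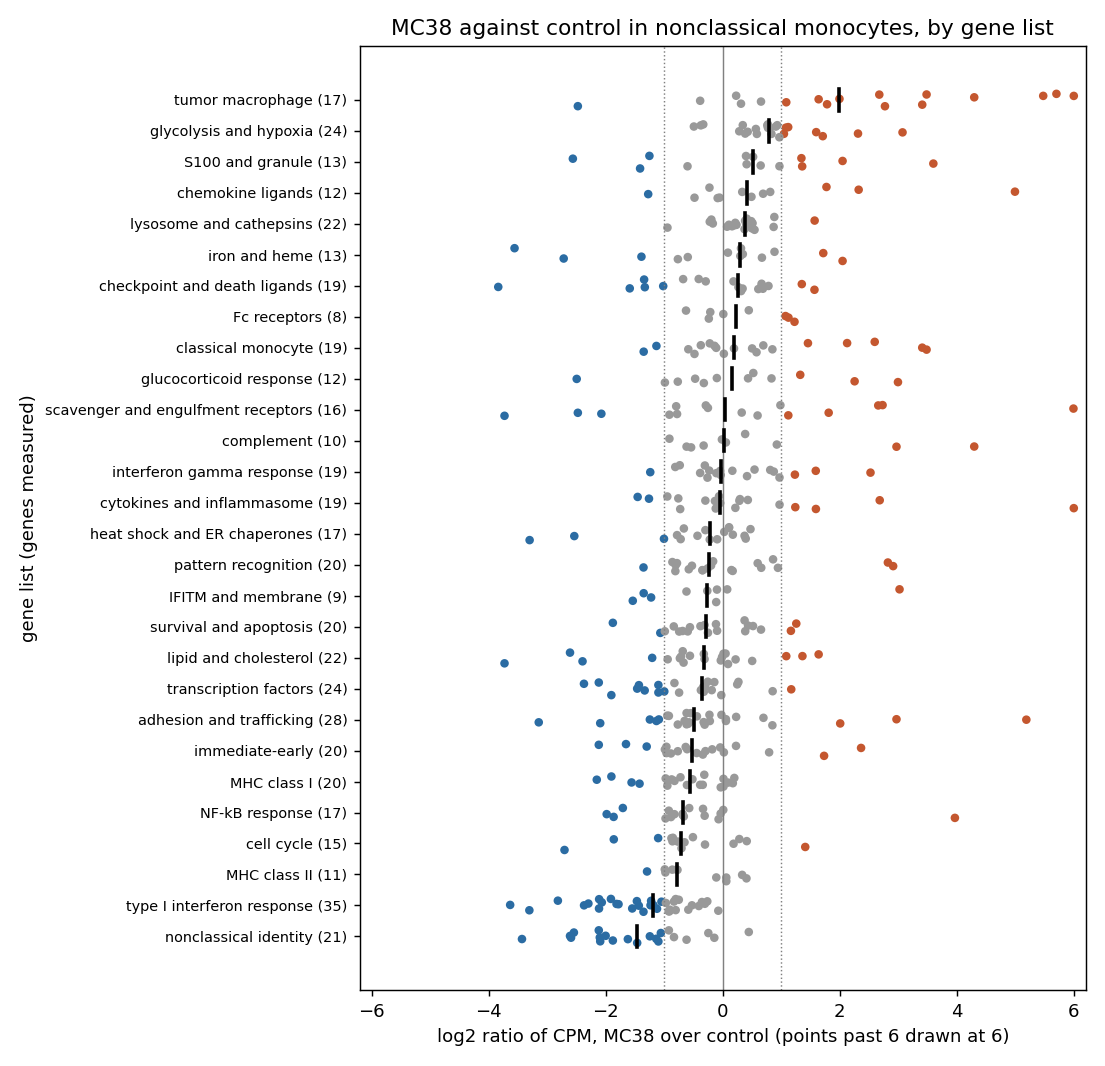
Log2 ratio of CPM, MC38 over control, for each measured gene (points) of 28 gene lists in nonclassical monocytes, with the list median as a black bar and the number of genes in brackets. Points at or past 2-fold are orange (higher) or blue (lower), and points past 6 are drawn at 6. The identity and type I interferon lists lie to the left (medians -1.46 and -1.19) and the tumor macrophage and glycolysis lists to the right (1.99 and 0.78).

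Genes known from tumor-associated macrophages were higher in 12 of 17 measured, with 1 lower, and a median log2 ratio of 1.99, beside 2.002 in classical monocytes. Without Arg1 and Spp1, left out after their shares in other cells had been seen, 10 of 15 were higher and 1 lower, with a median of 1.78. Lrg1, a secreted leucine-rich glycoprotein, was at 3.09 CPM in control and 161 CPM in MC38 members, and C3ar1, the C3a receptor, at 3.81 and 74.9 CPM. Trem2, a lipid-binding receptor of macrophages, was at 71.4 and 245 CPM and Apoe at 2279.8 and 4835 CPM. Among thinned MC38 cells Lrg1 had a UMI in 22.3% of members and 4.91% of T cells, C3ar1 in 11.7% and 3.90%, and Trem2 in 40.7% and 8.37%. Apoe had a UMI in 80.4% and 97.1% of thinned control and MC38 members, but also in 25.9% and 47.0% of T cells and 34.6% and 61.7% of B cells, so its share was higher in the MC38 library in those cells too. Arg1 (arginase 1) had a UMI in 33.0% of MC38 members, but also in 29.5% of T cells and 22.9% of B cells of that library, and after thinning in 11.4%, 16.5% and 14.5%. At equal depth the Arg1 share in MC38 members was below that of cells that should lack the gene, and it is not read as expression. The same holds for Spp1, at 1.47% of thinned members and 4.47% of thinned T cells.

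Lipid handling was split. Plin2, which coats lipid droplets, and Fabp5, a fatty acid carrier, were higher, at 149 and 382 and 83.0 and 258 CPM. Fabp4, another fatty acid carrier, was lower, at 81.1 and 13.3 CPM, as was Sqle, an enzyme of cholesterol synthesis, at 20.0 and 3.79 CPM. The list had 3 of 22 higher and 4 lower. Pltp, a phospholipid transfer protein, and Nr1h3 (LXR alpha) were more abundant than in classical cells of both libraries, by 2.25 and 3.20 and 3.02 and 2.12 log2 units. Of the lysosomal genes 1 of 22 was higher, Ctsd (cathepsin D) at 130.4 and 387 CPM, and none lower, while Ctsb (cathepsin B) was at 1186 and 615 CPM.

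Some genes of survival and apoptosis also differed from classical monocytes. Against classical monocytes, 6 of 18 were higher in both libraries, among them Bcl2, by 2.67 and 1.05 log2 units, and Bcl2a1a, Bcl2a1b and Bcl2a1d, near-identical copies of an antiapoptotic gene whose counts cannot be separated with certainty. The 2 others, Bbc3 (Puma) and Pmaip1 (Noxa), which oppose survival, stood above classical cells by 1.37 and 1.05 and 2.33 and 2.59. Between the libraries Bcl2 was at 103 CPM in control and 28.1 CPM in MC38 members, a log2 ratio of -1.88 (-2.23 to -1.55), and Bcl2a1b at 221 and 178 CPM. Bad, at 31.9 and 76.1 CPM, and Bcl2l1, at 7.61 and 17.1 CPM, were higher in MC38 members. Mcl1, an antiapoptotic gene, was at 759 and 699 CPM. After thinning, Bcl2 had a UMI in 18.6% of control and 2.93% of MC38 members, and in 2.77% and 2.10% of classical cells. Its shares were 52.6% and 53.8% in T cells and 25.9% and 35.6% in B cells. The part of RNA from those cells in the Bcl2 level of members was not tested.

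Proliferation genes were low in both libraries. Mki67 was at 10.2 and 6.00 CPM and Top2a at 13.8 and 3.79 CPM. In the iron list 2 of 13 were higher and 3 lower, with Hpgd, which inactivates prostaglandins, at 168 and 64.1 CPM, and the ferritin chains Fth1 and Ftl1 at 3103 and 5724 and 3975 and 6319 CPM. Of the ligands and receptors of immune checkpoints, Cd274 (PD-L1) was at 26.2 and 29.7 CPM, close between the libraries, and 2.57 and 2.39 log2 units above classical monocytes. Thinned shares of cells with Cd274 were 4.41% and 4.76% in members and 2.59% and 2.60% in T cells. Havcr2 (TIM-3) was at 54.5 and 86.2 CPM. The heat shock genes Hspa1a and Hspa1b were at 110.1 and 19.0 and 122 and 12.3 CPM, with log2 ratios of -2.63 and -3.01 in classical cells as well, and the glucocorticoid target Fkbp5 was at 7.37 and 58.8 CPM.

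Ranked over all genes by the end of the interval nearest to no difference, the 12 genes furthest above the control in MC38 members were Spint1, Htra3, Lrg1, Ccr1, C3ar1, Chil3, Cd33, F11r, Prtn3, Ecm1, Dhrs3 and Lmna. Spint1 (chr2:119237362-119249527), an inhibitor of serine proteases on the cell surface, had 22 and 887 UMIs and was at 5.23 CPM in control and 280.2 CPM in MC38 members, in 2.43% and 85.0% of members. Classical monocytes had Spint1 at 2.41 and 236 CPM, so this difference was not limited to nonclassical cells. All of the 12 but Lmna (log2 0.91) were at least 2-fold higher in MC38 classical monocytes too. Log2 ratios there were 7.94 for Lrg1, 4.48 for C3ar1, 4.03 for F11r, 2.77 for Dhrs3 and 2.62 for Chil3. Htra3 (chr5:35652023-35679782), a secreted serine protease, was at 2.14 CPM in control and 128 CPM in MC38 members and at 0.402 and 18.2 CPM in classical cells, 2.41 and 2.81 log2 units higher in members of the control and the MC38 library. The control value rested on 9 UMIs in members and 2 in classical cells, with an interval of 0.14 to 5.66. Cd33, an inhibitory sialic acid receptor, was at 9.52 and 132 CPM and F11r, the junctional adhesion molecule JAM-A, at 16.4 and 191 CPM. Ecm1, an extracellular matrix protein, was at 23.8 and 229 CPM.

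The 12 genes furthest below the control were Cd36, Cd300e, Hspa1b, S1pr5, Eno3, Serpinb10, Pglyrp1, Stap1, Hspa1a, Fabp4, Ldlrad3 and Ifi27l2a. Cd36 (chr5:17781690-17888801) and Cd300e (chr11:115051917-115062177) led them, and their values are given above. Pglyrp1, a peptidoglycan recognition protein, was at 203 and 34.7 CPM and Stap1, an adaptor protein, at 219 and 38.2 CPM. Serpinb10 was at 167 and 27.5 CPM, and at 87.4 and 6.88 CPM in classical monocytes. Eno3 (chr11:70657202-70662513) was at 3.22 and 4.42 CPM in classical monocytes of the control and the MC38 library, so it was low there in both. Ifi27l2a (-2.53), Ldlrad3 (-2.21), Stap1 (-1.56), Serpinb10 and both heat shock genes were at least 2-fold lower in MC38 classical monocytes too. So were S1pr5 (-3.51, on 23 and 11 UMIs) and Cd36 (-2.59, on 22 and 20 UMIs). Pglyrp1 (-0.65) was within 2-fold there and Fabp4 (1.42) higher.

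Ranked in the same way against classical monocytes, with the smaller of the 2 libraries' values, the genes furthest above were Adgre4, Bcl2a1a, Pltp, H2-Eb1, H2-Aa, Adrbk2, Fcgr4, Cd74, Bcl2a1b, H2-Ab1, Gngt2 and Bcl2a1d. The genes furthest below included F13a1, Prtn3, Mmp8, Slpi, Gas7, Vcan, Hp, C3, Fn1, Mgst1 and Lgals1. Prtn3, the neutrophil protease proteinase 3, stood -4.66 and -2.32 log2 units from classical cells, and F13a1 -2.36 and -2.40. The distance of MC38 members from their own classical monocytes was as large as in the control for F13a1 and smaller for Fcgr4, at 3.73 and 1.78, and for Ear2, at 3.89 and 1.31.

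**Figure D4:**
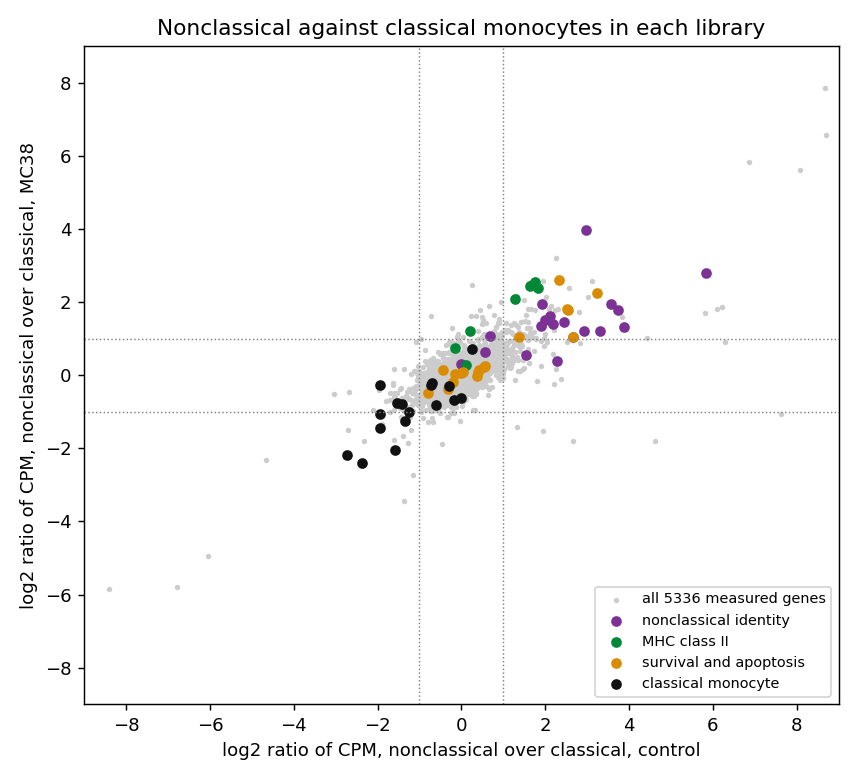
Log2 ratio of CPM in nonclassical over classical monocytes in the control (horizontal) and in the MC38 library (vertical), for all 5336 measured genes (grey) and 4 gene lists (colours), with dotted lines at 2-fold. Of the identity genes (purple) 14 of 19, and of the MHC class II genes (green) 5 of 8, lie beyond 2-fold in the upper right. Of the classical genes (black) 7 of 17 lie beyond 2-fold in the lower left.

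Counted per cell at equal depth, the list medians of members differed between the libraries in the same directions as the sums. Of the members 408 control and 273 MC38 cells reached 2000 UMIs. The median number of identity list UMIs per thinned cell was 13.5 in control and 6 in MC38 members, and 4 and 2 in classical monocytes. For the interferon list it was 12 and 6 in members and also 12 and 6 in classical cells. Class II genes had medians of 17 and 10 UMIs in members against 5 and 5 in classical cells, and glycolysis genes 6 and 10 in members.

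**Figure D5:**
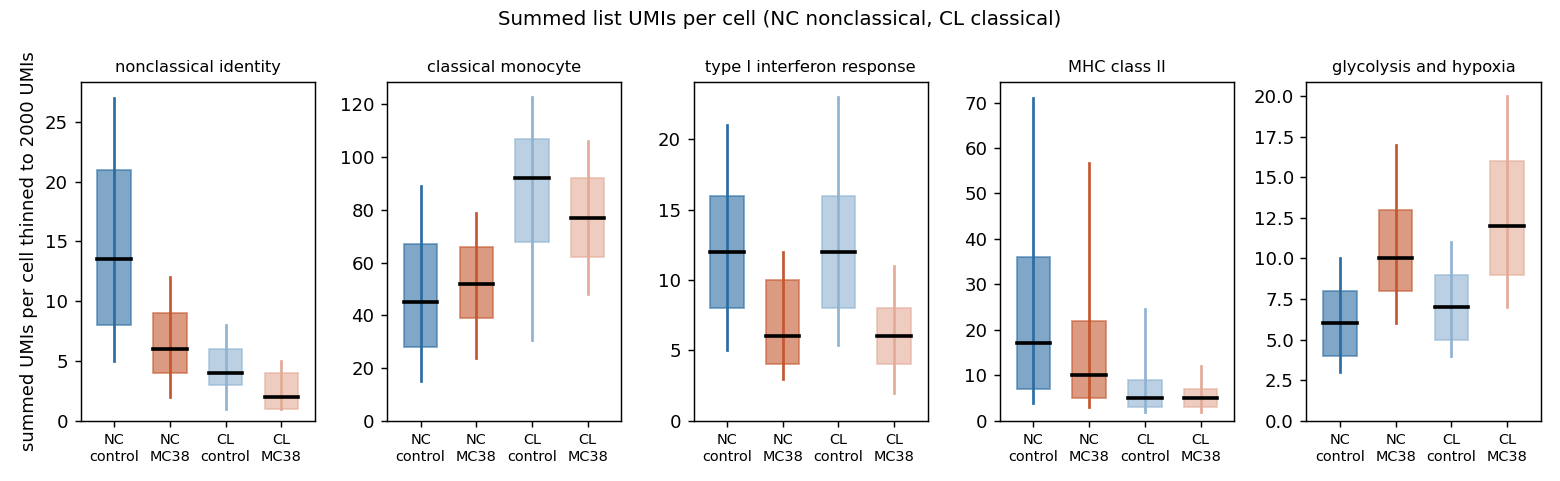
Summed UMIs per cell of 5 gene lists after each cell was thinned to 2000 UMIs, for nonclassical (NC) and classical (CL) monocytes of both libraries. Black bars are medians over cells, boxes the first to the last quartile, and lines the 10th to 90th percentiles, which describe cells of 1 library and no replicate error. The identity list medians are 13.5 and 6 in nonclassical cells and 4 and 2 in classical cells.

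Markers of other cells also differed between the libraries. Hepatocyte genes summed to 414 CPM in control and 1380.2 CPM in MC38 members, with 12 and 11 of 12 genes detected, and at least 5 UMIs of them were in 29.9% and 76.9% of members. Neutrophil genes summed to 1688 and 2470.4 CPM, with at least 5 UMIs in 5 control and 54 MC38 members, and Ly6g was at 0 in the control. Plasmacytoid dendritic cell genes, which include Bst2 and Tcf4, summed to 1033 and 275 CPM. Siglech, another gene of that list, had a UMI in 7.06% of control and 0.733% of MC38 members, and in 6.13% and 0% after thinning. In control members it was at 277 CPM with 5 or more UMIs of Ly6c2 and at 21.3 CPM with none. B cell genes summed to 604 and 311 CPM. T cell genes summed to 53.5 and 8.85 CPM, with Cd3e, Cd5 and Cd8b1 at 0 in MC38 members, and Kupffer cell genes to 43.3 and 58.8 CPM. Erythroid genes had the largest sum in MC38 members, 1108 CPM in control and 3589 CPM in MC38 members, with a UMI in 18.2% and 58.6% of them but at least 5 UMIs in 1 and 4 cells. Genes of NK cells or ILC1 summed to 82.3 and 24.6 CPM, plasma cell genes to 290.5 and 376 CPM and endothelial genes to 175 and 338 CPM. Genes of cDC1 summed to 117 and 98.6 CPM, those of cDC2 or mature dendritic cells to 129.9 and 73.3, platelet genes to 8.33 and 17.4 and mast cell or basophil genes to 4.996 and 18.3 CPM. Epithelial and stromal genes as found in MC38 tissue summed to 4.996 and 43.6 CPM, with the epithelial genes Cldn4 and Krt19 at 0 in both. The part of these transcripts, of the mitochondrial share and of doublets in the differences was not tested. Without the cells called doublets the medians were -1.50 for the identity list and -1.06 for the interferon list, beside -1.46 and -1.19 with them.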

How the data were processed

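The deposited files hold whole-number counts of UMIs per gene and barcode (per the file headers, and seen in the values), for 28692 genes in 2 libraries prepared with a 10x Genomics 5′ kit, per the labels' protocols. Per the submitters' processing notes, the build was GRCm38.p6 and the tools included Cell Ranger 2.2, STAR, bcl2fastq, R 3.6.0 and Seurat 2.3.4, while the matrix header names software version 3.0.2. The sources used here give no filter applied before deposit, and reads were not analysed here.

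Members were taken by the stated counts, without clustering. UMIs were summed over members per library and divided by their total, giving CPM. A gene at 0 was set to a floor of 3 counts. Ratios carry exact conditional Poisson intervals and shares exact binomial ones, at 95%, covering counting error only. Genes were called at 2-fold. Cells were thinned to 2000 UMIs for shares of cells, and doublets were called with scrublet per library at an expected 0.8% per 1000 barcodes and kept. T and B cell barcodes were those with most, and at least 5, UMIs of that cell's markers. The 28 gene lists held 608 genes, of which 8 matched no symbol. Any list gene with at least 20 UMIs could be named. Further genes were the first 12 per direction by the interval end nearest 0, with at least 50 CPM, a UMI in 10% of members where higher and at least 10% of their highest CPM in any other cell class. Genes used by the rule, antigen receptor, ribosomal, mitochondrial, hemoglobin and unnamed-model genes and markers of other cells were left out of that ranking. A few genes that these rules name are not reported here. Members and lists were chosen with earlier results of these data known. Positions are 1-based from GENCODE M21, for 615 of 616 named gene IDs, and promoters are from RefSeq. The ratio was tested on simulated data. The alternatives tried were other limits of the rule, other filters, doublets removed, thinning before the rule, scaling by the median ratio, equal weight per cell and other minimums. Python 3.11.15, numpy 2.4.6, scipy 1.17.1, pandas 2.3.3, scanpy 1.11.5 and matplotlib 3.10.9 were used.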

Additional observations from a re-analysis of the deposited data

Results flagged for a closer look

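A few genes went opposite ways, by at least 2-fold, in comparisons of the same kind, and in each case the difference between the comparisons was not tested. Fabp4 was lower in MC38 than in control nonclassical monocytes, with a log2 ratio of -2.61 on 341 and 42 UMIs, and higher in MC38 classical monocytes, with a log2 ratio of 1.42 on 7 and 102 UMIs. Hes1, a target of Notch signalling, had log2 ratios of -1.43 in nonclassical and 1.98 in classical monocytes.

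Against classical monocytes of its own library, Irf4 stood at -1.38 in the control and at 1.23 in the MC38 library. The neutrophil genes Lcn2, S100a8 and S100a9 stood at 2.67, 4.63 and 7.63 in the control and at -1.81, -1.81 and -1.06 in the MC38 library. In control members their UMIs came from few cells, 302 from 3 cells for Lcn2, 2804 from 19 for S100a8 and 2837 from 13 for S100a9.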

How the results depend on the processing

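No paired analysis was possible because each group had 1 library, so the groups share a single replicate number and no library could be left out. The smaller share of nonclassical monocytes in the MC38 library kept its direction under every alternative tried, with log2 ratios that moved with the rule. Of kept barcodes it was -2.26 with at most 5% mitochondrial UMIs, -3.08 with 10 to 20% only, -1.21 with no mitochondrial limit, -1.17 with at least 1000 genes per cell, -2.25 with at least 3 UMIs of Ace and Treml4, -2.27 with 1 UMI of each, -0.79 without the C1q limit and -2.70 after thinning before the rule. The share among monocytes was -2.65, -2.70, -1.46 and -3.18 with the last 4 of these. Splits chosen after seeing the data gave -3.05 and -3.57 for members with at least 5 UMIs of the pair, -2.42 and -3.14 for those with 5 to 9, and -0.77 and -1.53 for those with 2 to 4, of kept barcodes and of monocytes in turn.

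Counts of genes past 2-fold moved under several alternatives. Higher and lower genes were 424 and 540 with at most 5% mitochondrial UMIs, 484 and 673 with 10 to 20%, and 1075 and 1129 with a minimum of 5 UMIs and no CPM minimum, beside 279 and 287. After thinning before the rule, which left 136 control and 33 MC38 members and 2597 genes measured, 162 (6.24%) were higher and 423 (16.3%) lower. Against classical monocytes 53 were higher with 10 to 20% mitochondrial UMIs, beside 86, and 37, 72, 50 and 49 were lower, beside 24, with at least 3 UMIs of the pair, after thinning, with at least 5 and with 5 to 9.

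Of 159 named genes past 2-fold in MC38 against control, 15 changed sign under at least 1 alternative, and with the genes nearer to no difference 181 of 462 did. The 15 are given here. With at most 5% mitochondrial UMIs these were Cxcl2 (-0.063), Ngp (7.03) and Camp (5.27), and with 10 to 20% Dusp16 (0.52), the gene Il18bp (-0.067), Traf1 (0.024), H2-Ob (0.045), Tfrc (0.32) and Spic (0.14). Slpi over classical monocytes was then at 0.078 in the MC38 library. Cxcl2 was at -0.73 with 1 UMI each of Ace and Treml4, at -0.49 with at least 5 of the pair and at -0.50 with 5 to 9, and Ngp at 0.17 with at least 5. Egr2 was at -0.21 without the Cxcl10 limit, and Maf (0.31), Mrc1 (1.28) and Top2a (0.20) reversed without the C1q limit. Notch2 (0.19) and Ccl5 (0.79) reversed after thinning before the rule, Ngp (0.49) and Camp (0.31) with equal weight per cell, and Dusp16 (0.17) with 2 to 4 UMIs of the pair. Ifit3 had 6 and 0 UMIs after thinning before the rule, too few for a value. The cause was not tested.

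Of 28 list medians 13 changed sign under at least 1 alternative, all of them within 0.71 of 0 to begin with. With at most 5% mitochondrial UMIs these were the Fc receptor (-0.029), chemokine ligand (-0.063), cytokine (0.25), interferon gamma (0.42) and cell cycle (0.28) lists, and after thinning before the rule there were 7. The medians of 5 lists that kept their sign ranged from -1.80 to -0.93 for identity genes, -1.40 to -0.90 for type I interferon genes, -1.24 to -0.08 for class II genes, 0.66 to 0.87 for glycolysis genes and 1.22 to 2.98 for tumor macrophage genes. Genes under 20 UMIs could not be judged at this depth, and without a second library per group none of the differences has an error between animals.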
